A study of Rattus norvegicus with 6 samples.

Results

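Transcribed ultraconserved regions were measured by 959 of the 38803 probes on the array that were not controls. These probes were chosen by their names, which begin with uc and give an element number and a strand (uc.97+ is the plus probe of element 97). The names carried 480 element numbers between 1 and 483. Both strands were represented for 479 elements and only 1 strand for element 404, giving 479 plus probes and 480 minus probes with 1 spot each. All of them had a value on every array except uc.320-, which lost outlier spots on 2 arrays and was left out, so that 958 probes and 478 complete strand pairs were described. Strands are given as written in the probe names, and which RNA strand each probe reports was not given in the sources used here.

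Bone marrow mesenchymal stem cells (BMSCs), adherent cells that can form bone, cartilage and fat, came from the bone marrow of Sprague-Dawley rats. They were cultured for 48 h under normoxia (20% O2, 3 samples) or under hypoxia (0% O2, the gas being nitrogen and CO2, 3 samples), to compare RNA in cells with and without oxygen. No allele, transgene or drug was part of either group. Total RNA was labelled with Cy3 and hybridised to 1 single-colour Agilent array per sample. The labels speak of biological replicates without naming separate animals or cultures, so the p-values measure only the spread between these samples, and fewer cells of a type and less RNA per cell cannot be told apart in RNA from whole cultures. None of 8 marker genes for mesenchymal or blood cells could be matched to a probe by accession, so the labelled cell type was not checked here.

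Ultraconserved elements are stretches of DNA that are identical between human, mouse and rat. Some overlap exons of protein-coding genes, many of them genes for RNA-binding and splicing proteins, where the conserved stretch often belongs to an exon whose inclusion sends the messenger RNA to decay. Others lie in introns or between genes, where many act as enhancers in the embryo, and some are transcribed from one or both strands as non-coding RNA.

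The arrays were scanned in 2 sessions, which did not match the conditions. The 3 normoxia arrays and hypoxia 1 belonged to the first scan, and hypoxia 2 and hypoxia 3 to the second. The median uc intensity was between 3.46 and 5.67 on the 4 arrays of the first scan and was 10.6 and 9.34 on the 2 arrays of the second, while the median local background was 14 to 16 and 22 to 22.5. Over the tested uc probes, the log2 values of hypoxia 1 correlated with those of the normoxia arrays at r of 0.979 to 0.984 and with those of hypoxia 2 and hypoxia 3 at 0.919 and 0.918, a description across probes that share the arrays. For the main comparisons of the conditions, values are therefore also given for hypoxia 1 alone, within the first scan, since scan and condition cannot be told apart for hypoxia 2 and 3.

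The uc probes were detected less often than the LncRNA and mRNA probe series on every array. A probe counted as detected where the scanner software marked its spot both as significantly positive and as well above background. The share of uc probes detected was 46.3%, 50.0% and 44.7% on normoxia 1, 2 and 3, and 44.8%, 59.8% and 62.5% on hypoxia 1, 2 and 3. The 2 arrays of the second scan stood above the other 4, which included hypoxia 1. Over the 6 arrays the mean was 51.4% ± 7.89 (SD, n = 6), against 79.5% ± 5.10 (SD, n = 6) of all other probes. The difference was -28.1 percentage points and lay between -30.9 and -23.9 on single arrays (lower on 6 of 6 arrays, two-sided exact permutation test by sign flips, p = 0.03125, the smallest that 6 arrays allow). With detection by significance alone the difference was smaller, -16.3 points.

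The gap was smaller against the probes whose name series holds long non-coding RNAs (LncRNAs). Of the 9355 LncRNA probes, 62.8% were detected on average, and the uc share was lower by between 10.4 and 13.2 points on 6 of 6 arrays (mean difference -11.5 points, exact permutation p = 0.03125). Of the 28236 probes in the mRNA series, 85.1% were detected. The median log2 level of the uc probes was 2.51 against 5.29 for all other probes, a difference of -2.77 (exact permutation p = 0.03125) that was -0.62 with normexp background correction, which adds an offset of 50 to every intensity. The brightness of a probe also depends on its sequence, so this compares signals and not RNA amounts. The plot of detection by array shows the same order of the 3 series on every array.

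**Figure D1:**
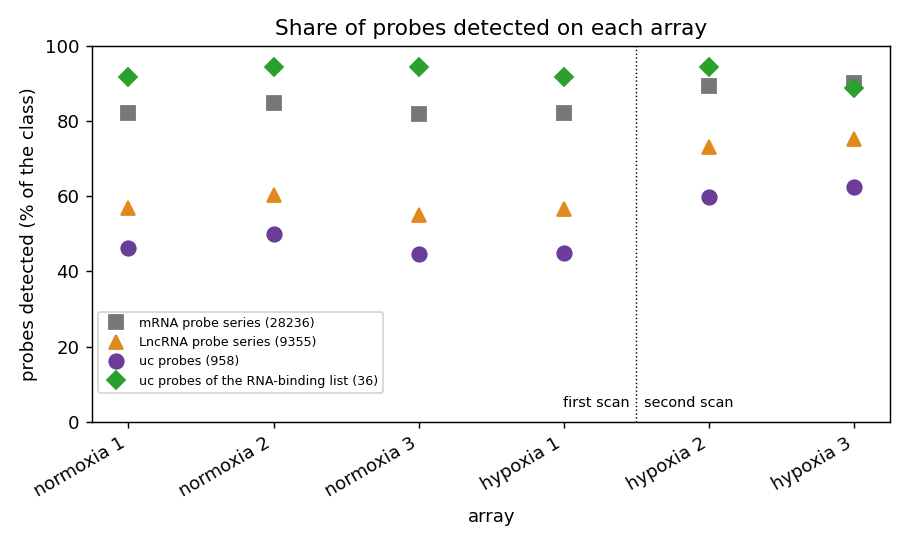
Share of probes detected (percent, vertical axis) on each of the 6 arrays for the uc probes, the LncRNA series, the mRNA series and the 36 uc probes in human genes for RNA-binding proteins, with a dotted line between the 2 scans. The uc probes lie lowest on all 6 arrays, between 44.7% and 62.5%, and the 36 probes lie between 88.9% and 94.4%.

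Most uc probes were detected either on every array or on none. All 6 arrays detected 383 of the 958 probes (40.0%), against 72.5% of the other probes. No array detected 302 of them (31.5%, against 11.5%), 180 were detected on 1 or 2 arrays and 93 on 3 to 5. The 476 probes detected on at least 3 arrays (49.7%, against 79.4% of the other probes) were carried into the tests of hypoxia. A further 89 probes (9.29%) were detected on both arrays of the second scan and on none of the first, as were 5.33% of the other probes and 9.89% of the LncRNA series.

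Averaged by condition, 47.0% ± 2.72 (SD, n = 3) of uc probes were detected in normoxia, compared with 55.7% ± 9.56 (SD, n = 3) in hypoxia. The difference of 8.70 points did not pass the two-sided exact permutation test (p = 0.3, where 0.1 is the smallest possible). Hypoxia 1 lay 2.23 points below the normoxia mean and the mean of hypoxia 2 and 3 lay 14.2 points above it. The other probes moved in the same order, by -0.845 and 9.35 points.

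The elements that lie in human genes for RNA-binding proteins were detected more often than the other elements, which is given as a description because the list was chosen with earlier results of these data known. A list of 18 such elements was used, named here by their human genes, which come from background knowledge because the files name no gene. The elements lie in SRSF11 (uc.28), PTBP2 (uc.33), HNRNPU (uc.45 and uc.46), TRA2A (2 elements), TRA2B, HNRNPDL, HNRNPH1, HNRNPK, HNRNPM, SRSF3, SRSF6, SYNCRIP, TIAL1, PCBP2, RBM39 and DDX3X. SRSF and TRA2 proteins promote the use of exons, HNRNP proteins package nascent RNA and often repress exons, and DDX3X is an RNA helicase. Of the 36 probes of the list, the detected share was 91.7%, 94.4% and 94.4% on normoxia 1, 2 and 3 and 91.7%, 94.4% and 88.9% on hypoxia 1, 2 and 3. Of the other 922 uc probes, it was 44.6%, 48.3% and 42.7%, and 43.0%, 58.5% and 61.5%. The list was higher than the other uc probes on every array, and since 32 of its 36 probes were already detected on all 4 arrays of the first scan, its share could hardly be higher on the second.

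The mean share was 92.6% ± 2.27 (SD, n = 6) for the list and 49.7% ± 8.23 (SD, n = 6) for the other uc probes. The difference was 42.8 points, between 27.4 and 51.7 on single arrays and above 0 on 6 of 6, and on the 4 arrays of the first scan the shares were 93.1% and 44.6%. Probes for the 2 strands of an element share their locus and are not independent of each other. Every one of the 18 elements had a strand detected on all 6 arrays, as had 273 of all 480 elements. Both strands were detected on all 6 arrays for 13 of the 18, and for 110 of the 480.

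For part of the elements a single strand was detected. Counted as detected on at least 3 arrays, 149 of the 478 pairs (31.2%) had both strands, 85 (17.8%) the plus strand alone, 93 (19.5%) the minus strand alone and 151 (31.6%) neither. These counts depended on the flag used: with detection by significance alone, 308 pairs had both strands, 67 the plus strand alone, 61 the minus strand alone and 42 neither. On the 4 arrays of the first scan together, 117 pairs had both strands detected on every array. With both flags, the minus probes were detected slightly more often than the plus probes, at a mean of 52.5% against 50.2%. The difference for plus minus minus was -2.37 points and lay between -3.97 and -1.04 (6 of 6 arrays, exact permutation p = 0.03125). This p measures the spread over arrays that read the same probes. The order depended on the rule: over the pairs, significance alone gave 78.5% for plus and 77.2% for minus, and detection on at least 1 array gave 68.6% for both.

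Detection of one strand went with detection of the other. The minus probe was detected in 65.0%, 65.0% and 63.2% of pairs whose plus probe was detected on normoxia 1, 2 and 3, and in 64.4%, 68.9% and 70.1% on hypoxia 1, 2 and 3. Where the plus probe was not detected, the shares were 34.5%, 36.5% and 32.3%, and 33.7%, 48.7% and 53.8%. The first set of shares was higher on every array, by 26.2 points on average and by between 16.3 and 30.8 points (exact permutation p = 0.03125). Elements with successive numbers were alike in detection to a lesser degree: over 948 pairs of neighbouring numbers on the same strand, the next probe was detected on at least 3 arrays in 55.3% of cases after a detected probe and in 44.1% after an undetected one. Neighbouring numbers can lie close together in the genome, and these shares are given as a description.

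**Figure D2:**
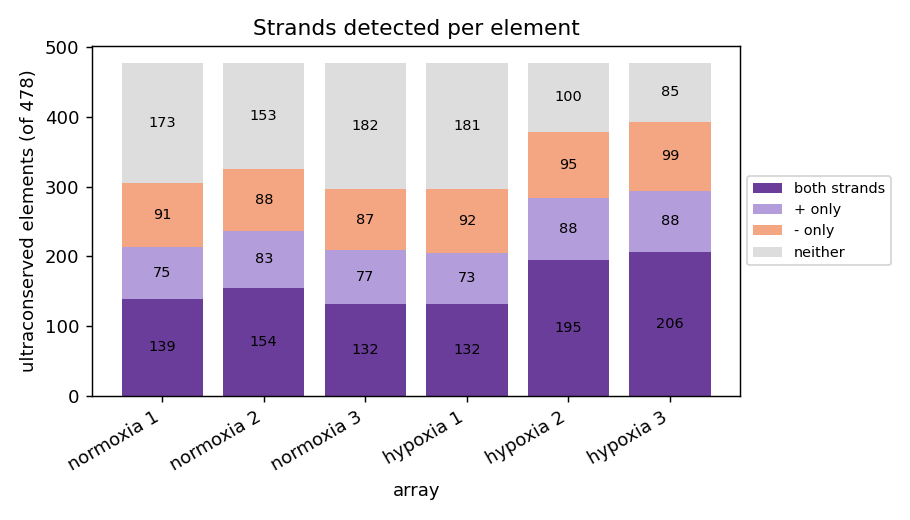
Number of elements (vertical axis, of 478) on each array with both strands, the plus strand alone, the minus strand alone or neither strand detected, as stacked bars. Both strands were detected for 132 to 154 elements on the 4 arrays of the first scan and for 195 and 206 on hypoxia 2 and hypoxia 3.

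Under hypoxia, 4 uc probes were downregulated and 0 were upregulated. The test was limma across all 30451 probes detected on at least 3 arrays, blocking on the replicate number. Calls required a change over 2-fold and a p under 0.05 after Benjamini-Hochberg adjustment. The 4 probes are 0.84% of the 476 tested, against 2.71% of all tested probes called lower and 0.923% called higher, and in the LncRNA series 1.25% were called lower and 0.503% higher. At an unadjusted p under 0.05, 81 uc probes were lower (17%, background 15.8%) and 56 higher (11.8%, background 12.5%), shares close to those of all probes. The paired test that the study's methods name, run without adjustment for the number of probes, gave 4 lower (background 3.03%) and 0 higher (background 1.07%) at the same fold. After adjustment it called 0 uc probes, and of all 30451 probes it called 0% lower and 0.00328% higher.

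On the 3 normoxia arrays the log2 level of uc.195- was 5.59, 5.39 and 5.35, and under hypoxia it was 3.94, 3.64 and 3.59. The groups did not overlap and both scans showed the lower level, hypoxia 1 differing by -1.50 from the normoxia mean and hypoxia 2 and 3 by -1.83. The difference of the groups was -1.72 on the log2 scale (SE 0.16, limma adjusted p = 0.0149). Before normalization its intensity was 52.9, 38.7 and 28.9, then 10.7, 21.4 and 18.5, so that it was lower on every hypoxia array although the second scan was brighter. The opposite strand, uc.195+, differed by -0.18 (limma adjusted p = 0.618).

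The second called probe was uc.97+, with 7.34, 7.46 and 7.50 under normoxia and 6.39, 5.58 and 5.49 under hypoxia. All 3 hypoxia arrays were lower, hypoxia 1 by less than the others (-1.05 against -1.90). The difference was -1.62 (SE 0.26, limma adjusted p = 0.0380). Its opposite strand was detected on 1 array and was not tested.

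For uc.461+ the normoxia levels were 3.55, 3.60 and 3.31 and the hypoxia levels 1.93, 1.85 and 2.06. It was a dim probe, detected on the 3 normoxia arrays and on hypoxia 2 and 3 but not on hypoxia 1, where the lowest level that counted as well above background was 2.79. Its difference was -1.53 for hypoxia 2 and 3, and for hypoxia 1, the only hypoxia array of the first scan, the size of the difference (-1.56 as computed) is uncertain. The difference was -1.54 (SE 0.19, limma adjusted p = 0.0207), and no array detected its opposite strand. In intensity the groups overlapped, with 11.3, 10.6 and 6.4 under normoxia and 2.5, 7.1 and 7.6 under hypoxia. The separation of uc.461+ therefore depended on the normalization between arrays.

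The fourth probe, uc.403+, had 4.97, 5.27 and 5.32 under normoxia and 4.04, 3.98 and 3.76 under hypoxia. The groups did not overlap and both scans showed the lower level, with -1.14 for hypoxia 1 and -1.32 for hypoxia 2 and 3. The difference was -1.26 (SE 0.20, limma adjusted p = 0.0363). Its opposite strand uc.403- stood at 0.43 (adjusted p = 0.398). For each of the 4 probes the exact permutation test of 3 arrays against 3 gave p = 0.1, the smallest it can give. The 4 were picked by their calls on the same arrays, so this adds no separate support. Of all tested probes, 22.2% had hypoxia values entirely below the normoxia values. The plot of their single values shows the hypoxia arrays below the normoxia arrays in all 4.

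**Figure D3:**
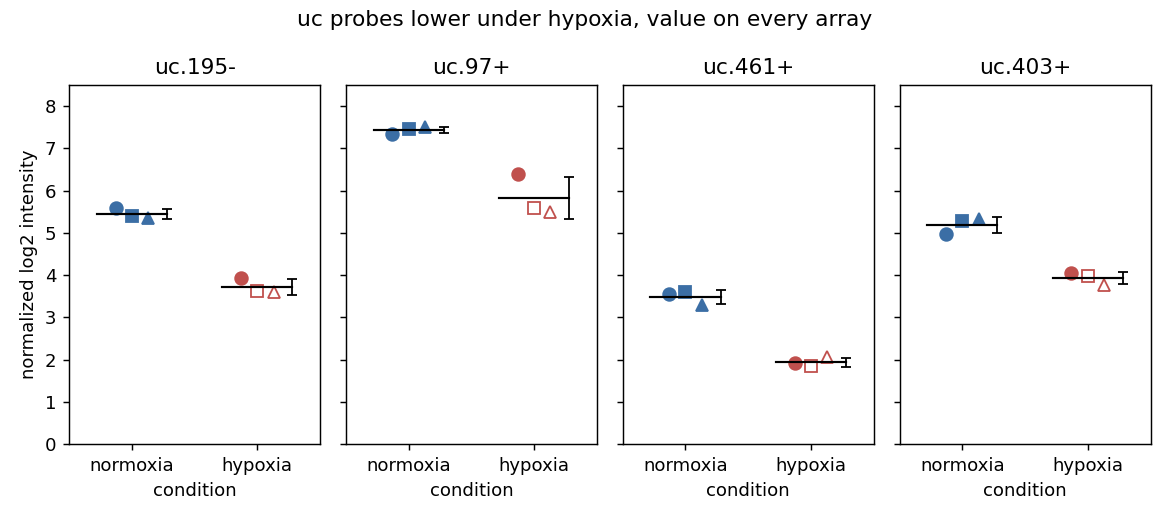
Normalized log2 level (vertical axis) of uc.195-, uc.97+, uc.461+ and uc.403+ on the 3 normoxia and 3 hypoxia arrays, with circles, squares and triangles for replicates 1, 2 and 3, open symbols for the second scan, a line at the mean and a bar for the SD. In each panel the 3 hypoxia values lie below the 3 normoxia values, and hypoxia 1, the filled symbol, lies at least 1.05 below the normoxia mean.

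When the fit blocked on the scan and not on the replicate number, which leaves hypoxia 1 as the only hypoxia array of its session, 8 uc probes were called lower (background 2.41%) and 2 higher (background 2.08%), the 4 probes among them. That fit sets hypoxia 1 alone against the normoxia mean and takes its spread from the other arrays, so it adds no replicate of the difference, and uc.461+ was not detected on hypoxia 1. With no block at all, 6 were lower (background 3.78%) and 1 higher (background 1.27%). With scan and replicate number both as blocks none of the 4 was called (adjusted p between 0.0611 and 0.107), in a fit that called 0 of all 30451 probes. With normexp background correction (1.34% of all probes called lower), whose offset of 50 exceeds the intensity of most of these spots and draws dim probes towards no difference, only uc.97+ stayed called (-1.07, adjusted p = 0.0146), the other 3 being under 2-fold (-0.59, -0.23 and -0.37 for uc.195-, uc.461+ and uc.403+). With 75th-percentile scaling uc.461+ and uc.403+ were under 2-fold (-0.86 and -0.83), and with no filter on detection (0.315% of all probes called lower) only uc.195- stayed called. In the authors' table uc.461+ fell just short of 2-fold (-0.99). Without normoxia 1, 2 or 3 or without hypoxia 2 in turn, uc.97+ was no longer called (adjusted p between 0.0545 and 0.0743), and without the arrays of replicate 3 uc.403+ was not (0.0960).

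The largest uncalled differences were carried by hypoxia 2 and 3. Among probes with higher means under hypoxia, uc.378- had 9.51, 9.48 and 9.32 under normoxia and 9.72, 11.82 and 11.64 under hypoxia. Hypoxia 1 lay 0.285 above the normoxia mean and hypoxia 2 and 3 lay 2.30 above it, and the difference of 1.63 did not pass (SE 0.46, limma adjusted p = 0.111). The dim probe uc.172+ had 2.21, 2.81 and 2.35 under normoxia and 3.01, 4.56 and 5.03 under hypoxia (adjusted p = 0.069). The same split held for uc.158+ (2.33, 2.03 and 2.31, then 3.05, 4.40 and 4.30), uc.282+ (2.88, 3.02 and 3.35, then 3.65, 5.06 and 5.02) and uc.362+ (3.02, 3.27 and 3.08, then 3.19, 5.14 and 5.06). In each of them hypoxia 1 was the hypoxia array nearest to normoxia. Some of these 5 probes passed in other fits: uc.172+, uc.158+ and uc.282+ with 75th-percentile scaling (adjusted p = 0.0234, 0.0225 and 0.0197), uc.158+ with no replicate block (0.0366), and uc.282+ in the authors' table (0.0453) and among probes detected on all 3 arrays of a condition (0.0455).

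Among the uncalled probes with lower means under hypoxia was uc.264+, with 3.62, 3.07 and 3.93 under normoxia and 2.99, 0.85 and 0.63 under hypoxia (difference -2.05, limma adjusted p = 0.088). It was not detected on hypoxia 2 and 3, so the size of its difference is uncertain, and in the authors' table it was -0.998. The probe uc.375+ had 2.90, 3.56 and 3.26, then 2.69, 0.68 and 1.05, and the plus probe of the element in HNRNPDL, the gene of a nuclear RNA-binding protein, had 4.31, 4.11 and 4.18, then 3.83, 2.27 and 1.23. For uc.480- (3.08, 3.22 and 3.39, then 3.16, 1.10 and 0.62) and uc.103- (3.38, 3.30 and 3.46, then 3.34, 1.99 and 0.22), hypoxia 1 lay within the range of the normoxia arrays. Neither uc.375+ nor uc.480- was detected on hypoxia 2 and 3, and the HNRNPDL probe and uc.103- were detected on 1 of them. The sizes and the order of these lower differences are therefore uncertain. In the authors' table uc.375+, the HNRNPDL probe, uc.480- and uc.103- stood at -0.881, -1.28, -0.629 and -0.653. Of the 10 uncalled probes named here, 10 passed without the arrays of replicate 1, 7 without those of replicate 2 and 6 without those of replicate 3. These probes were picked for their large differences, and the same fits called 17.8%, 3.87% and 3.96% of all tested probes. Without replicate 1 the conditions and the scans coincide.

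Counted over the 476 tested probes, the arrays of the 2 scans gave different numbers of changes. Hypoxia 1 lay over 2-fold below the normoxia mean for 9 uc probes (1.89%, background 2.66%) and over 2-fold above it for 3 (0.63%, background 2.31%). The mean of hypoxia 2 and 3 lay over 2-fold below for 75 (15.8%, background 8.87%) and above for 48 (10.1%, background 8.58%). The probes over 2-fold lower in both were the 4 called ones, of which uc.461+ was not detected on hypoxia 1. None was over 2-fold higher in both, and 2 were over 2-fold on opposite sides in the 2 scans. A further 71 lower and 46 higher ones passed the fold in the second scan only. Without hypoxia 1, limma without the replicate block called 75 uc probes lower (background 8.81%) and 47 higher (background 8.38%), counts in which condition and scan cannot be told apart. The same holds without the arrays of replicate 1, where 74 were lower (background 9%) and 47 higher (background 8.76%). Without replicate 2, 10 were lower (background 2.57%) and 5 higher (background 1.3%), and without replicate 3, 5 were lower (background 2.57%) and 5 higher (background 1.39%). In the first scan alone, with hypoxia 1 as the only hypoxia array, 9 were lower (background 2.51%) and 2 higher (background 2.09%).

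**Figure D4:**
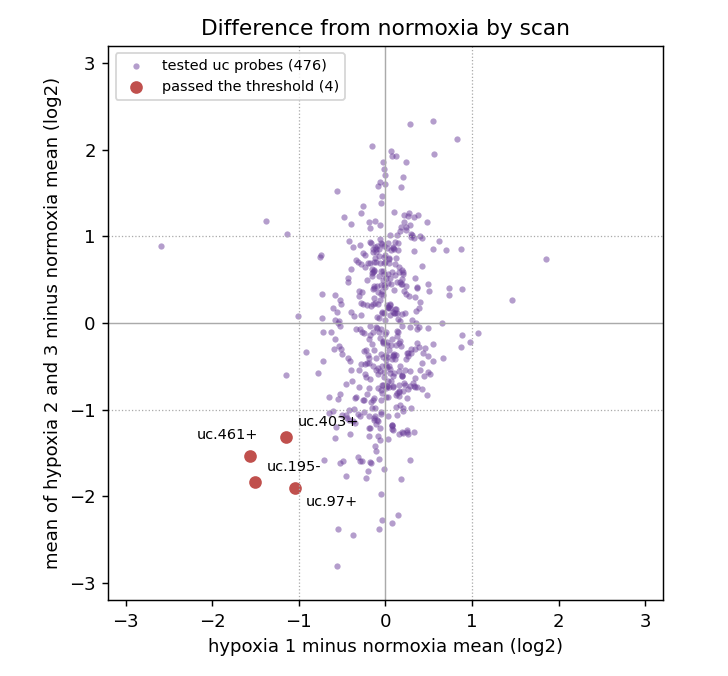
Difference of hypoxia 1 from the normoxia mean (horizontal axis, log2, first scan) against that of the mean of hypoxia 2 and 3 (vertical axis, log2, second scan), with 1 point for each of the 476 tested uc probes and lines at 2-fold. The 4 called probes are the points beyond 2-fold lower on both axes, and most points beyond 2-fold on the vertical axis lie within 2-fold on the horizontal one.

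A few probes were detected in one condition only. On all 3 hypoxia arrays and no normoxia array, 4 probes were detected (uc.44+, uc.158+, uc.255- and uc.392-), which is 0.418% of the uc probes against 0.453% of the other probes. Against the lowest level that counted as well above background on each normoxia array, uc.158+ was at least 2.32-fold higher, uc.255- at least 1.23-fold and uc.44+ at least 1.13-fold, while no fold could be given for uc.392-. On all 3 normoxia arrays and no hypoxia array, 2 probes were detected (0.209%, against 0.151%). By group means, uc.375+ was at least 2.66-fold lower and uc.442+ at least 1.96-fold lower under hypoxia. These bounds average over both scans, and the lowest level that counted was 2.79 on hypoxia 1 but 1.51 and 1.19 on hypoxia 2 and 3. On hypoxia 1, uc.375+ stood at 2.69 (normoxia 2.90, 3.56 and 3.26) and uc.442+ at 2.76, within its normoxia values (2.83, 2.68 and 3.11). Neither passed the test (limma adjusted p = 0.115 and 0.148). A further 3 probes, uc.264+, uc.285- and uc.480-, were detected on the 4 arrays of the first scan and on neither of the second (0.313%, against 0.0318% of the other probes).

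One element lies, in human, within OGT, the gene of the enzyme that attaches N-acetylglucosamine to proteins, and its RNA is known to be raised by hypoxia in human cancer cells. Here its plus probe had 9.38, 9.46 and 9.47 under normoxia and 9.79, 9.31 and 9.57 under hypoxia. Its values overlapped between the conditions, and the difference was 0.12 (SE 0.19, limma adjusted p = 0.678), with hypoxia 1 at 0.358 above the normoxia mean. The minus probe had 7.58, 7.38 and 7.38, then 7.65, 7.37 and 7.46, a difference of 0.04 (SE 0.16, adjusted p = 0.882). Both strands were detected on all 6 arrays.

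None of the 35 tested probes of the RNA-binding list was called (background 2.71% lower and 0.923% higher), and their differences leaned towards lower levels. With 35 probes and these shares, the lack of calls is no result about the list. Of the 35, 28 (80.0%) had a difference below 0, against 257 of all 476 tested uc probes (54.0%). Their median difference was -0.37, against -0.08 for all tested uc probes, and it was -0.06 for hypoxia 1 alone, where 22 of the 35 were below 0, and -0.54 for hypoxia 2 and 3. For all tested uc probes these medians were -0.01, with 249 of 476 below 0, and -0.10. At an unadjusted p under 0.05, 9 were lower (25.7%, background 15.8%) and 3 higher (8.57%, background 12.5%). When arrays were scaled to their 75th percentiles and not quantile-normalized, the median of the list was -0.28, with 23 of 35 below 0, while that of all uc probes turned to 0.36. By strand, the median was -0.38 for plus and -0.37 for minus probes, and -0.14 and -0.29 with 75th-percentile scaling.

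Besides the plus probe in HNRNPDL, described above, the largest differences in the list were those of 3 probes. The plus probe in SYNCRIP, whose protein binds messenger RNA in the cytoplasm, had levels of 4.26, 4.07 and 4.25 under normoxia and of 3.92, 2.73 and 2.46 under hypoxia (difference -1.15, limma adjusted p = 0.102). The plus probe of the higher-numbered of the 2 elements in TRA2A had 3.72, 2.84 and 2.58, then 3.23, 1.48 and 1.01 (difference -1.14, adjusted p = 0.079), and hypoxia 1 lay within the normoxia values. It was detected on 2 normoxia arrays and hypoxia 1 only, so the size of its difference is uncertain, and in the authors' table it was -0.376. In the opposite direction, the minus probe in SRSF6 had 10.51, 10.46 and 10.18, then 10.65, 11.35 and 11.88 (difference 0.91, adjusted p = 0.149), with hypoxia 1 nearest to normoxia.

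**Figure D5:**
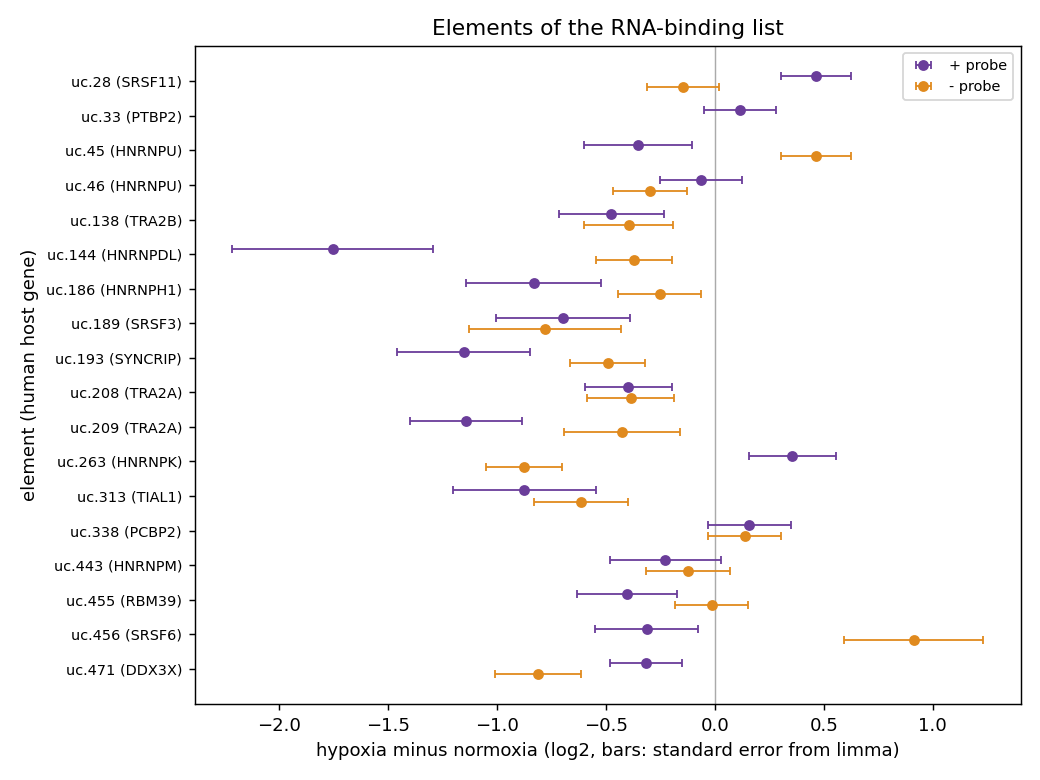
Difference between hypoxia and normoxia (log2) for the probes of the 18 elements in human RNA-binding protein genes, plus and minus strand apart. The differences run from -1.76 to 0.91 and 28 of the 35 tested probes lie below 0.

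The differences of the 2 strands of an element under hypoxia varied largely apart from each other. Over the 149 pairs with both strands tested, the differences of the plus and minus probes correlated at r = 0.136 (Spearman 0.153), a description over pairs measured on the same 6 arrays. Both strands had a higher mean under hypoxia in 29 pairs, both a lower one in 60, and the strands went opposite ways in 60. The median distance between the strands was 0.52, and in 31 pairs it was over 1 on the log2 scale. For hypoxia 1 alone the correlation was 0.197 (Spearman 0.241), both strands lay above the normoxia mean in 42 pairs, both below it in 45 and on opposite sides in 62, the median distance was 0.20 and 6 pairs were over 1 apart.

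Among the pairs with the largest computed distance was element 285. Its plus probe had 7.07, 7.07 and 7.08 under normoxia and 7.14, 9.21 and 8.79 under hypoxia, and its minus probe had 2.95, 3.33 and 3.48, then 3.32, 0.94 and 0.95. On hypoxia 1 both strands stayed near their normoxia levels, and on hypoxia 2 and 3 the plus strand was higher and the minus strand lower. Neither difference, 1.31 for the plus probe and -1.51 for the minus probe, passed the test (limma adjusted p = 0.130 and 0.174). Elements 356 (0.66 and -1.33), 480 (0.13 and -1.61) and 89 (-0.82 and 0.90) followed, with no strand called. On hypoxia 1 alone these strands stood at 0.33 and -0.05, at 0.30 and -0.07 and at -0.11 and -0.05, so that the wide distances came from the arrays of the second scan. The minus probes of elements 285 and 480 were detected on neither of those arrays and that of element 356 on 1 of them, so the sizes of their differences and the order of these pairs are uncertain; in the authors' table they stood at -0.597, -0.629 and -0.603. In element 403 the called plus probe stood at -1.26 and the minus probe at 0.43, and on hypoxia 1 they stood at -1.14 and -0.14. No test was made of the difference between strands.

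None of the 5 uc probes with the highest levels was called. Their order reflects probe brightness and is not an order of RNA amounts. The levels of uc.247+ were 14.10, 14.07 and 13.60, then 13.75, 14.21 and 14.02 (limma adjusted p = 0.831), and no uc spot was saturated. For uc.408- the levels were 12.74, 12.79 and 12.85, then 12.73, 12.61 and 12.63 (adjusted p = 0.607), which did not overlap although hypoxia 1 and normoxia 1 nearly met. The levels of uc.141- (12.73, 12.77 and 12.77, then 12.53, 12.50 and 12.40) and uc.46- (12.71, 12.70 and 12.64, then 12.44, 12.24 and 12.48) did not overlap between the conditions either, with small differences that did not pass (adjusted p = 0.297 and 0.283). Over all tested uc probes, 82 had hypoxia values entirely below the normoxia values (17.2%, background 22.2%) and 57 entirely above (12%, background 17.3%). The levels of uc.465- overlapped (12.50, 12.31 and 12.18, then 11.80, 12.47 and 12.12).

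The differences of the tested uc probes were centred near 0, the lowest (uc.264+, not detected on hypoxia 2 and 3) being of uncertain size. Their median was -0.08 (interquartile range -0.48 to 0.38, whole range -2.05 to 1.74), against 0.17 for the tested LncRNA probes and -0.04 for the mRNA series, values that turned to 0.36, 0.50 and 0.07 with 75th-percentile scaling, under which 21 uc probes (4.41%, background 4.08%) were called higher and 4 lower (background 3.02%). The differences of single uc probes were somewhat wider than those of the other probes, with a median size of 0.43 against 0.35. In the dimmest of 4 equal bins of brightness, which held 51.3% of the tested uc probes, the sizes were close, 0.406 and 0.402. In the brighter bins, from low to high, they were 0.464 against 0.397, 0.450 against 0.390 and 0.300 against 0.244. The uc probes were also dimmer. In the brightest bin lay 6.93% of the tested uc probes, and from the lowest to the highest bin the median uc difference was -0.08, -0.07, -0.06 and -0.13.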

How the data were processed

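The authors deposited, for each of 6 arrays, Agilent Feature Extraction 11.0.1.1 output, with intensity values corrected for background and not normalized between arrays, and a table of log2 values that their methods describe as quantile-normalized in GeneSpring, which served as an alternative. Control and outlier spots were left out, log2 intensity was averaged per probe and 38733 probes were quantile-normalized. Probes detected on at least 3 arrays (30451) entered a limma 3.58.1 fit (R 4.3.3) that blocked on the replicate number, with Benjamini-Hochberg adjustment. The number of arrays limits the precision. LncRNA and mRNA series were read from probe names. Probes named were those called, the 5 largest uncalled in each direction, the 5 brightest, the element in human OGT, the 4 largest of the RNA-binding list and the 5 widest strand pairs. The probes, lists and tests were chosen with earlier results of these data known. Alternatives were other scalings, filters, blocks and tests and leaving out arrays. Probe sequences and coordinates were not used here.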

Additional observations from a re-analysis of the deposited data

How the results depend on the processing

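The number of uc probes called lower, 4, was 1 with normexp background correction (background 1.34%) and 1 with no filter on detection (background 0.315%). It was 8 with the scan as a block (background 2.41%), 0 with scan and replicate blocks and 0 by the adjusted paired t-test (background 0% in both). Without a replicate number it ran from 5 to 74 (background 2.57% to 9%) and without 1 array from 3 to 75 (background 1.64% to 8.81%), the highest counts without hypoxia 1. The number called higher, 0, was 21 with 75th-percentile scaling (background 4.08%) and 2 with the scan block (background 2.08%). It was 1 in the authors' table (328 of all 30448 probes) and 1 among probes detected on all 3 arrays of a condition (332 of 29237). With detection by significance alone it was 1 (117 of 35799). Without a replicate number it ran from 5 to 47 (background 1.3% to 8.76%) and without 1 array from 0 to 47 (background 0.663% to 8.38%). The deviations of same-numbered arrays correlated at r of -0.193, -0.0641 and -0.0894, and those of differently numbered arrays at -0.162 to 0.211. Whether same-numbered samples share an animal or culture cannot be told from these values. With no replicate block 6 were lower and 1 higher. Apart from the first scan alone, which holds 1 hypoxia array, no other setting moved these counts by over 1.5 times. The detected share against the other probes was -16.3 points with detection by significance alone, ran from -29.0 to -27.6 points without 1 array (p = 0.0625, the smallest 5 arrays allow) and was -29.8 in the first scan (permutation p = 0.125, the smallest 4 arrays allow). The median level ran from -2.82 to -2.73 without an array or a replicate number, where 0.0625 or 0.125 is the smallest p, and was -0.62 with normexp (offset 50). Detection by significance alone gave 61 minus-only, 308 both-strand and 42 neither-strand pairs; detection on at least 1 array gave 248 and 70 of the last 2. The median difference of the uc probes was 0.36 with 75th-percentile scaling, which moved the median of all probes from -0.0022 to 0.16.

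Of the 4 called probes none changed sign. Some uncalled probes did, among them uc.480-, uc.285-, uc.89- and the TRA2A plus probe with large differences in the reported fit, and the cause was not tested. With 75th-percentile scaling uc.247+ stood at -0.051 and the plus probe in OGT at -0.013, and with normexp uc.247+ at -0.0063 and the minus probe in OGT at -0.0088. With the scan block and in the first scan uc.247+ stood at -0.17, the TRA2A plus probe named above at 0.18, uc.285- at 0.072, uc.89- at -0.050 and uc.403- at -0.14. With scan and replicate blocks uc.480- stood at 0.080, uc.247+ at -0.35, uc.285- at 0.375, uc.89- at -0.076 and uc.403- at -0.15. Without a replicate number, uc.247+ ran from -0.10 to 0.28, uc.465- from -0.38 to 0.050, the plus probe in OGT from -0.024 to 0.26 and uc.403- from -0.023 to 0.71. Without normoxia 3 or hypoxia 2 uc.247+ stood at -0.087 and -0.036, without hypoxia 1 the minus probe in OGT at -0.038 and without hypoxia 3 uc.403- at -0.023. Alternatives added after seeing the data were those of the first scan and of detection without 1 array. Low signal limits the dim probes: the median uc intensity lay below the median local background on every array.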
